A study of Mus musculus with 28 samples.

Results

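The MYC, MAX and MXD network was followed through the conversion of a mouse Pre-B cell line into macrophages. Its 9 members, Myc, Mycn, Max, Mxd1, Mxd3, Mxd4, Mxi1, Mnt and Mlx, were taken by gene symbol from an RNA table of 55450 genes, and the contacts of the Myc promoter fragment were taken from promoter capture Hi-C (PCHi-C) lists. The cells were C10, a line derived from HAFTL, fetal liver cells transformed with Ha-ras, and every group carried a CEBPalpha-ER transgene, in which C/EBPα is joined to the estrogen receptor and enters the nucleus when β-estradiol is added. RNA libraries were made from uninduced cells (0h) and from cells at 1h, 12h and 48h after addition of 100 nM β-estradiol, 10 nM IL-3 and CSF-1, with 3 biological replicates per time. Estradiol and both cytokines were added together, so their effects cannot be told apart. The labels do not say whether replicates came from separate cultures, so p-values measure the spread between these libraries. PCHi-C, which enriches a Hi-C library for fragments that hold promoters, was deposited as 1 list per time, merged from 2 replicates.

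MYC is a transcription factor that binds DNA only as a dimer with MAX, through the E-box letters CACGTG, and it raises genes for ribosome production, nucleotide synthesis and the cell cycle. The MXD proteins (Mxd1, Mxi1, Mxd3 and Mxd4) and MNT also dimerize with MAX, bind the same letters and recruit SIN3 repressor complexes, so they oppose MYC at shared sites. MLX is a MAX-like partner that pairs with MLXIP and MLXIPL and with some MXD proteins. In blood cells, MYC marks proliferating precursors such as Pre-B cells, and MXD1 is known for its rise as myeloid cells leave the cell cycle.

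RNA levels are given as TPM (the abundance of a transcript relative to all others of its library, corrected for length) divided by a size factor per library, called scaled TPM below. This scaling was chosen because the median gene of the unscaled values moved by 0.59 on the log2 scale between 0h and 1h. The method sets this shift near 0 by design (0.02 after scaling), and whether the median gene changed in the cells was not tested. Transcripts of a ribosomal RNA locus took between 70.3% and 82.9% of the deposited TPM. Their share did not track the size factors in every library. It was 75.7% at a factor of 0.752 in 48h replicate 3 and 79.8% at 1.03 in 0h replicate 1. The part of the locus in the shift was not tested. TPM keep no record of read numbers, so the depth behind each value is unknown. Sums of marker genes followed the labels. The summed scaled TPM of 9 Pre-B markers went from 324–350 at 0h to 42.8–51.0 at 48h, and that of 9 macrophage markers from 9.94–13.3 to 1347–1628. Single markers could differ. Cd79b was at 35.7–38.1 at 0h, 2.77–4.02 at 1h and 16.1–18.2 at 48h, and Pax5 at 2.34–2.87 at 12h and 4.51–5.99 at 48h. The macrophage sum at 48h was mostly Mmp12 (544–802) and Ctsc (474–544). The macrophage marker Adgre1 was listed at 0 in all 0h and 1h libraries and reached only 0.29 TPM in any library. The sum of 11 markers of T, NK, red blood, neutrophil, fibroblast and epithelial cells reached 0.133 at most, with 9 of them at 0 in every 48h library.

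Of the 9 members, 8 had a promoter sequence in RefSeq for GRCm38.p6, Myc being the exception. The 4 promoters printed here belong to the antagonists whose RNA rose, Mxd4 and Mxd1, and to Mnt and Mlx. In scaled TPM the latter pair fell at 1h and came back at 12h, which depends on the scaling, as given below. Each holds the 250 bases before the annotated start, and capitals mark matches on either strand to the E-box CACGTG or to the C/EBP letters TTGCNNAA.
Mxd4, chr5:34187711-34187960, minus strand: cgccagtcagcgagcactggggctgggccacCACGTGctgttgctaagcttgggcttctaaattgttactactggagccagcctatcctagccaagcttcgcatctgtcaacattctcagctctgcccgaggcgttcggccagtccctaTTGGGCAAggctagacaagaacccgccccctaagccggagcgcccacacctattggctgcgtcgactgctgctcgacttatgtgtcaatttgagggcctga
Mxd1, chr6:86669160-86669409, minus strand: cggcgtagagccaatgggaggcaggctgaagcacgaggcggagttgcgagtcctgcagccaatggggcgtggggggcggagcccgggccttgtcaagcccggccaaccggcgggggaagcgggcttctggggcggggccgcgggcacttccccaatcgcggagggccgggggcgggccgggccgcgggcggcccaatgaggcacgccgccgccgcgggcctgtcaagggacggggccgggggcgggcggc
Mnt, chr11:74830674-74830923, plus strand: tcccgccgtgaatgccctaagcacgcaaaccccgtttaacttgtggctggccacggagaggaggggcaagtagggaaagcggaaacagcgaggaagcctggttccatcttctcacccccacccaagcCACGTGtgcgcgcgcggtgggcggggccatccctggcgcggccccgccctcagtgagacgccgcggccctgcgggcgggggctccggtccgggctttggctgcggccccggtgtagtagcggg
Mlx, chr11:101087040-101087289, plus strand: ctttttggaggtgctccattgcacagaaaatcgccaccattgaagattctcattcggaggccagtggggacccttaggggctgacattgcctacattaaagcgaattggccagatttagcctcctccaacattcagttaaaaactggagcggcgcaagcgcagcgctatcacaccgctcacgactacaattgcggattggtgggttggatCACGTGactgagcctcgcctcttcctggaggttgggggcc
An E-box lay 219 bases before the start of Mxd4, 123 bases before that of Mnt and 40 bases before that of Mlx. It was present in 3 of the 10 promoters listed for the 8 members, where 6.02% of 32851 mouse promoters of the same length hold it. The C/EBP letters were present in the Mxd4 promoter alone, 101 bases before the start, and in 9.56% of all promoters. The Mxd1 window held neither set of letters and had a GC content of 78.4%, against 58% for Mxd4. These matches describe the letters only, and binding was not examined.

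In uninduced cells Myc was the most abundant member and the antagonists were low. Ordered by scaled TPM at 0h, Myc (31.2–34.2) stood above Max (9.65–16.6), Mlx (4.62–5.04), Mnt (2.75–4.09) and Mxi1 (1.18–2.74), and none of these neighbouring ranges overlapped over 3 libraries each. Mxd3 (0.679–0.880), Mxd4 (0.652–0.834) and Mxd1 (0.413–0.718) came last and overlapped each other. By 48h the order had closed up. Max (12.0–28.9), Myc (11.2–13.1), Mxd1 (8.73–10.4) and Mxd4 (7.39–11.2) now formed the upper group, in which every range overlapped at least 1 other. Mnt (2.88–4.71) and Mlx (3.01–3.72) overlapped each other below them, followed by Mxi1 (1.37–2.17) and Mxd3 (0.226–0.462).

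**Figure D1:**
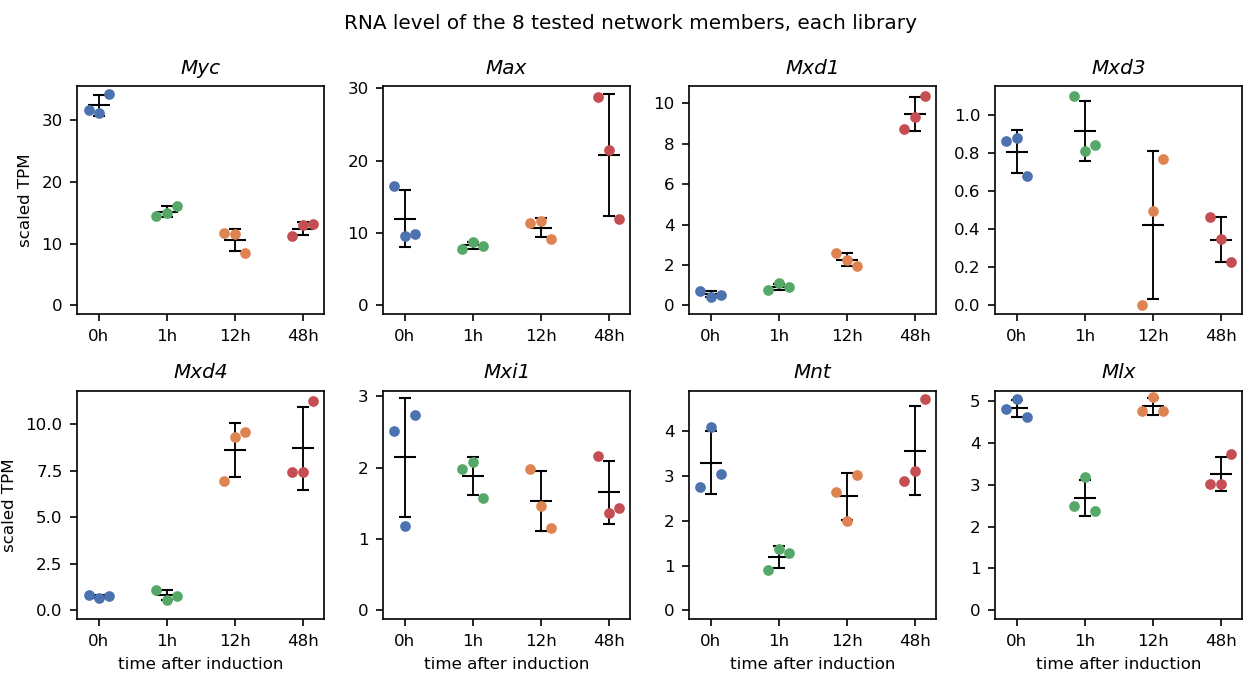
RNA level of the 8 tested members in scaled TPM (y axis, a separate scale per gene) at each time after induction (x axis). Points are the 3 libraries of a time and bars the mean ± SD; Myc falls from 31.2–34.2 at 0h to 8.48–11.7 at 12h, while Mxd1 climbs to 8.73–10.4 at 48h and Mxd4 is already at 6.96–9.56 at 12h.

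Levels were compared with limma over the 16415 genes that averaged at least 0.1 deposited TPM, on log2(scaled TPM + 0.1), and a gene is called at a Benjamini-Hochberg adjusted p under 0.05. Fold changes on this scale understate the change of low genes. The comparisons against 0h share their control libraries. At 1h, 0 of the 8 members tested were called higher and 3 lower (Myc, Mnt and Mlx), where 5.42% of all genes tested were higher and 4.92% lower. At 12h, 2 were higher (Mxd1 and Mxd4) and 1 lower (Myc), against 16.0% and 14.5% of all genes. At 48h, 2 were higher (the same Mxd1 and Mxd4) and 2 lower (Myc and Mlx), against 24.5% and 22.0%. The median log2 fold change of the members was -0.29, -0.24 and -0.10 in the comparisons of 1h, 12h and 48h, and that of all genes was 0.02, 0.07 and 0.07. Without scaling, the members had medians of 0.35, 0.09 and -0.49 and all genes of 0.59, 0.34 and -0.18, so the sign of the first pair of member medians turns with the scaling while they stay below those of all genes. Calls at 1h depended on the scaling. Without it, 24.1% of all genes were higher and 1.41% lower, and Mxd1, as the only member called, was higher. In these bulk samples, fewer cells of a type and less RNA per cell cannot be told apart.

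**Figure D2:**
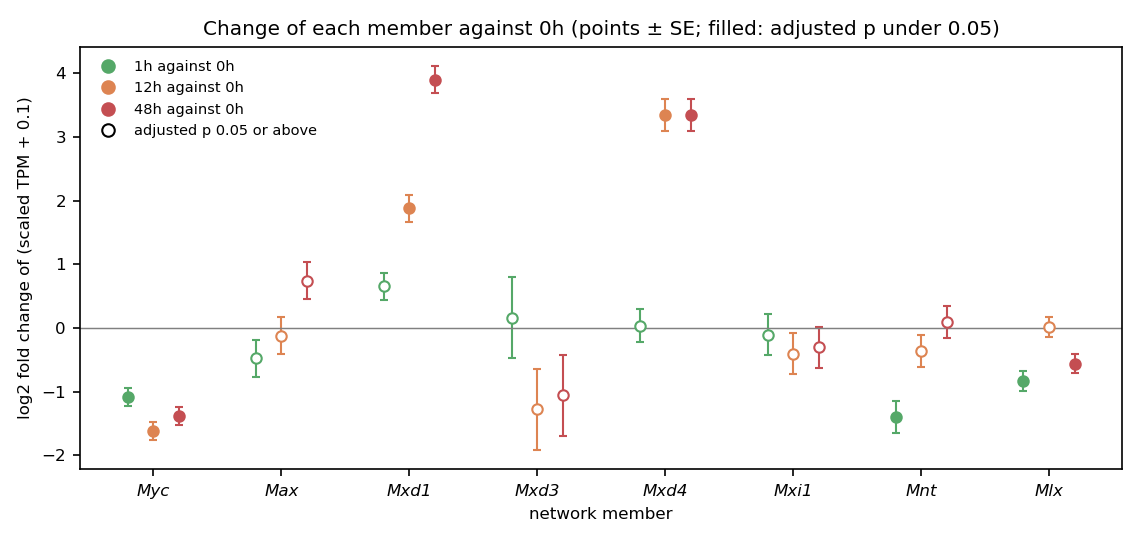
Log2 fold change of (scaled TPM + 0.1) against 0h (y axis) for each of 8 members (x axis), with SE from limma over 12 libraries. Filled points have an adjusted p under 0.05: Mxd1 (3.90) and Mxd4 (3.34) lie highest at 48h and Myc (-1.61) is lowest at 12h, while the 1h calls of Myc, Mnt and Mlx are not made on unscaled TPM and hollow points do not show that a member was unchanged.

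Myc (ENSMUSG00000022346, chr15:61985391-61990374, plus strand) encodes the activating partner of the network. Its scaled TPM was 31.6, 31.2 and 34.2 in replicates 1, 2 and 3 of 0h, and 14.5, 14.9 and 16.1 at 1h. At 12h it was 11.7, 11.6 and 8.48, and at 48h 11.2, 13.0 and 13.1. Every 0h library lay above every later library, the 1h libraries lay above those of 12h and 48h, and the latter times overlapped. Myc fell by 1.09 ± 0.14 on the log2 scale at 1h (SE, adjusted p from limma 6.43e-04), by 1.61 ± 0.14 at 12h (9.79e-06) and by 1.38 ± 0.14 at 48h (1.16e-05). On unscaled TPM the 1h difference was -0.43 with an adjusted p of 0.0632 from limma, so the call at 1h was lost. From 1h to 12h Myc fell by a further 0.53 ± 0.14 (adjusted p 0.0218, limma), a call that was lost when 1 of 3 libraries was left out: 1h replicate 2 (adjusted p 0.0512), 1h replicate 3 (0.0638) or 12h replicate 3 (0.0534). It was also lost with only the 6 libraries compared in the fit (0.0545) and without the trend (0.0596). From 12h to 48h the difference was 0.24 ± 0.14 with scaling (adjusted p 0.276, limma) and -0.50 without it (0.0251), so its direction is set by the scaling.

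The 5 genes whose pattern over the 12 libraries was most like that of Myc, by Pearson correlation of log2(scaled TPM + 0.1) among 9330 genes averaging at least 1 TPM, were Cmtm7 (r = 0.966), Grb7 (0.963), Pax5 (0.961), Fam53b (0.960) and Cd22 (0.959). Pax5 encodes the factor that maintains B cell identity, and Cd22 a B cell surface receptor. The 12 libraries share 4 time points, so these values describe time courses of like shape.

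Mycn (ENSMUSG00000037169, chr12:12936093-12941914, minus strand), the paralogue known from neural tumours and fetal progenitors, was at a mean of 0.0175 TPM and reached 0.06 TPM in any library. It was below the level needed for a test. Mycl, the other paralogue, was listed at 0 in all 12 libraries. The MYC family was therefore represented by Myc at every time.

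Max (ENSMUSG00000059436, chr12:76937269-76962201, minus strand) encodes the shared partner without which MYC, MXD and MNT do not bind. It was at 16.6, 9.65 and 9.81 scaled TPM at 0h, 7.85, 8.84 and 8.28 at 1h, 11.4, 11.6 and 9.26 at 12h and 28.9, 21.6 and 12.0 at 48h. The 48h libraries spread most, and the lowest of them lay within the 0h range. The 48h difference of 0.75 ± 0.30 was not called (adjusted p 0.0587, limma). It was called, at 1.00 (adjusted p 0.0204), without 0h replicate 1 and, at 1.10 (0.00380), without 48h replicate 3, and on unscaled TPM it was 0.34 (0.399). It was also called, at 0.75, when genes under a mean TPM of 1 were left out (0.0473). Whether Max counts as higher at 48h thus depends on the libraries, the filter and, as given below, the replicate block. The scaling moved the size of the difference and not the call.

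Mxd1 (ENSMUSG00000001156, chr6:86647042-86669161, minus strand), the founding MXD antagonist, rose in steps. It stood at 0.718, 0.413 and 0.524 scaled TPM at 0h, 0.770, 1.09 and 0.890 at 1h, 2.59, 2.27 and 1.94 at 12h and 8.73, 9.31 and 10.4 at 48h. No neighbouring times overlapped, and every library was above every library of an earlier time. Against 0h the difference was 0.66 ± 0.21 at 1h (adjusted p 0.0768, limma), 1.88 ± 0.21 at 12h (6.54e-05) and 3.90 ± 0.21 at 48h (7.92e-08). The 1h difference was not called with scaling, but was called at 0.83 without 0h replicate 1 (adjusted p 0.0383) and at 1.25 on unscaled TPM (0.00487). The later steps were each called, 1.22 ± 0.21 from 1h to 12h (adjusted p 0.00191, limma) and 2.02 ± 0.21 from 12h to 48h (4.70e-05). Genes of like pattern included Ccl6 (r = 0.992), a macrophage chemokine, Cd47 (0.992), Ppt1 (0.989), which encodes a lysosomal enzyme, and Gvin1 (0.988).

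Mxd4 (ENSMUSG00000037235, chr5:34173883-34187720, minus strand), a related antagonist, rose in a single step between 1h and 12h. Its scaled TPM was 0.834, 0.652 and 0.774 at 0h and 1.09, 0.549 and 0.761 at 1h, groups that overlapped. It was 6.96, 9.32 and 9.56 at 12h and 7.39, 7.43 and 11.2 at 48h, again overlapping groups, all above both early times. The difference was 0.04 ± 0.25 at 1h (adjusted p 0.961, limma), 3.34 ± 0.25 at 12h (3.15e-06) and 3.34 ± 0.25 at 48h (1.01e-06). Between 1h and 12h Mxd4 rose by 3.30 ± 0.25 (adjusted p 7.12e-06, limma), and between 12h and 48h the difference was 0.00 ± 0.25 (1, limma; -0.74 and 0.0883 unscaled). Most like it were Lyz2 (r = 0.991), the macrophage lysozyme, Nfam1 (0.990), Plxnd1 (0.988), Mgrn1 (0.988) and Rab44 (0.986). An antisense gene, Gm42846, covers 6.06% of the exon bases of Mxd4 at a mean of 0.138 TPM.

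The other antagonists were not called higher than at 0h at any time. Mnt (ENSMUSG00000000282, chr11:74830920-74845725, plus strand), the broadly expressed antagonist, was at 2.75, 4.09 and 3.05 scaled TPM at 0h, 0.905, 1.37 and 1.29 at 1h, 2.63, 1.99 and 3.01 at 12h and 2.88, 3.11 and 4.71 at 48h. The 1h libraries lay below all others, and the remaining times overlapped. Mnt fell by 1.40 ± 0.25 at 1h (adjusted p 0.00512, limma), which was -0.78 on unscaled TPM (0.0748), and rose by 1.04 ± 0.25 from 1h to 12h (0.0134). This rise was not called without 1h replicate 1 (0.87, adjusted p 0.0579), without 12h replicate 3 (0.91, 0.0557) or on unscaled TPM (0.74, 0.0978). At 48h Mnt differed from 0h by 0.10 ± 0.25 (adjusted p 0.794, limma).

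Mxi1 (ENSMUSG00000025025, chr19:53310518-53375810, plus strand), the MXD member also called MXD2, ranged from 1.15 to 2.74 scaled TPM over all 12 libraries, with overlapping groups. Its differences from 0h lay between -0.41 and -0.11, each with an SE of 0.32, and none was called. Mxd3 (ENSMUSG00000021485, chr13:55325168-55329823, minus strand), known as the MXD member of cycling cells, was at 0.863, 0.880 and 0.679 at 0h, 1.10, 0.811 and 0.844 at 1h, 0, 0.494 and 0.768 at 12h and 0.462, 0.349 and 0.226 at 48h. All 48h libraries lay below all 0h libraries, and the difference of -1.05 ± 0.64 was not called (adjusted p 0.205, limma). Leaving out 12h replicate 1, which is listed at 0 and widens the spread, made it a call at the same size (adjusted p 0.0114). Mxd3 shares 4.43% of its exon bases with Prelid1 on the other strand, which was at a mean of 31.0 TPM against 0.72 for Mxd3. No source states that the counting used strand, so reads of the shared bases cannot be told apart.

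Mlx (ENSMUSG00000017801, chr11:101087277-101092207, plus strand), the partner of MLXIP, moved down and up again. It was at 4.82, 5.04 and 4.62 scaled TPM at 0h, 2.50, 3.18 and 2.37 at 1h, 4.75, 5.10 and 4.77 at 12h and 3.03, 3.01 and 3.72 at 48h. The 0h and 12h libraries overlapped, and all lay above those of 1h and 48h. Mlx fell by 0.83 ± 0.15 at 1h (adjusted p 0.00530, limma), which was -0.19 on unscaled TPM (0.540) and -0.67 when TPM were rescaled without the 20 most abundant genes (0.0655). It rose by 0.85 ± 0.15 from 1h to 12h (0.00223, limma; 0.54 and 0.0991 unscaled) and fell by 0.58 ± 0.15 from 12h to 48h (0.0185), to 0.56 ± 0.15 below 0h (0.00996). The fall from 12h to 48h was not called without 12h replicate 2 (adjusted p 0.0548), 48h replicate 1 (0.0540) or 48h replicate 2 (0.0551). The gene Psmc3ip on the other strand shares 19.3% of the exon bases of Mlx, at a mean of 1.12 TPM against 4.12 for Mlx, and the share of its reads was not tested. From 1h to 12h, 4 members were thus called higher (Mxd1, Mxd4, Mnt and Mlx) and 1 lower (Myc), where 11.3% and 8.77% of all genes were. From 12h to 48h, 1 was higher (Mxd1) and 1 lower (Mlx), against 10.5% and 11.9%.

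Ratios between members in the same library do not depend on the scaling. Myc TPM divided by the summed TPM of Mxd1, Mxd3, Mxd4, Mxi1 and Mnt was 4.11, 4.32 and 4.40 at 0h and 2.48, 2.53 and 3.00 at 1h. It was 0.826, 0.747 and 0.516 at 12h and 0.517, 0.601 and 0.468 at 48h. Thus Myc transcripts outnumbered those of the 5 antagonists in every 0h and 1h library and were fewer in every 12h and 48h library, and the 12h and 48h ranges overlapped. The composition of the antagonists turned as well. Mxd1 and Mxd4 made up 14.8–20.2% of their summed TPM at 0h and 27.8–31.8% at 1h, then 67.4–74.6% at 12h and 74.5–77.6% at 48h. Mnt held 35.9–56.6% at 0h and 13.3–16.8% at 48h. Myc to Mxd1 alone went from 44.0–75.5 at 0h to 1.26–1.39 at 48h. These are ratios of RNA, and protein was not measured.

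**Figure D3:**
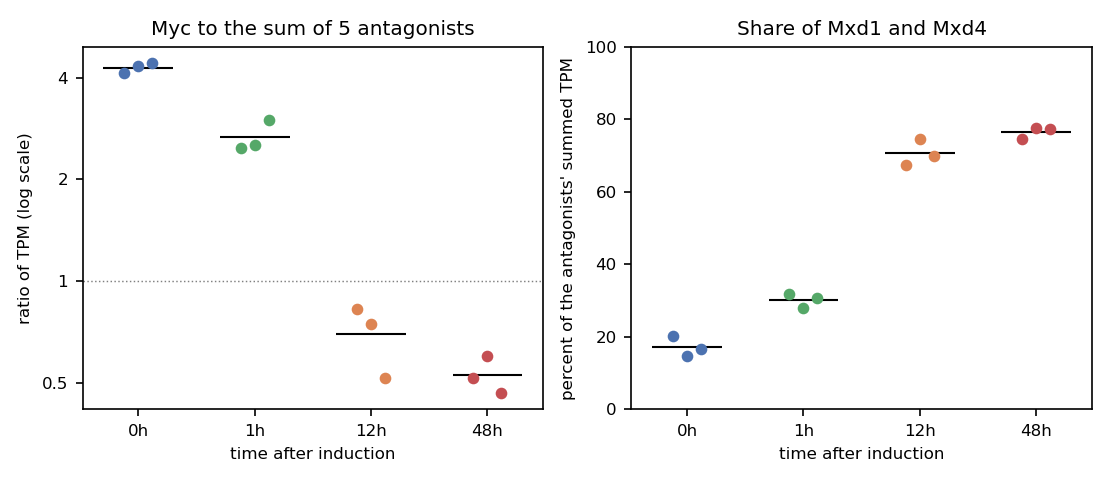
Left, Myc TPM divided by the summed TPM of Mxd1, Mxd3, Mxd4, Mxi1 and Mnt (y axis, log scale) by time; right, percent of that sum held by Mxd1 and Mxd4. Points are single libraries and lines the means of 3; the ratio passes from 4.11–4.40 at 0h to 0.468–0.601 at 48h, below the dotted line at 1.

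Of the other network genes, Mga, which encodes a MAX partner with a T-box domain, lay between 3.78 and 6.71 scaled TPM and was not called against 0h at any time with scaling, with differences of 0.14, -0.16 and -0.32. On unscaled TPM these were 0.80 (adjusted p 0.0226, limma), 0.17 (0.599) and -0.72 (0.0191). Mlxip (MondoA), the glucose-sensing partner of MLX, rose from 2.53–3.10 at 0h to 5.37–6.08 at 12h and then 7.32–8.77 at 48h, by 0.99 ± 0.16 (adjusted p 7.36e-04, limma) and 1.48 ± 0.16 (1.62e-05). Mlxipl reached 0.12 TPM at most and was not tested.

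Among cofactors of MYC, calls were made in both directions. Of 17 genes for partners and cofactors, 0 were higher and 1 lower at 1h, 2 and 6 at 12h, and 4 and 6 at 48h, where 24.5% of all genes were higher and 22.0% lower. Their median at 48h was -0.29 against 0.07 for all genes. Without scaling, 0 were higher and 10 lower at 48h, beside 2611 and 4466 of the 16415 genes. Ruvbl1 and Ruvbl2, helicases of the TIP60 and INO80 complexes, fell by 2.77 ± 0.37 (adjusted p 8.72e-05, limma) and 3.21 ± 0.36 (2.26e-05) at 48h. Ruvbl2 went from 16.5, 21.9 and 16.2 scaled TPM to 1.37, 1.38 and 3.39. Trrap, the scaffold that MYC binds in histone acetyltransferase complexes, was 0.77 ± 0.16 higher (0.00237) and Ncor1, a corepressor, 0.65 ± 0.16 higher (0.00639), and neither was called on unscaled TPM (0.37 with 0.219, and 0.24 with 0.287).

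Of 16 tested genes that act on MYC protein stability, 2 were higher and 9 lower at 48h, beside 24.5% and 22.0% of all genes, with a median of -1.23 against 0.07. The kinases Aurka and Plk1, which stabilize MYC family proteins and are also mitotic genes, were at 3.97–5.44 and 5.93–7.50 scaled TPM at 0h and at 0–0.0697 and 0–0.253 at 48h. Both were called (adjusted p 1.74e-08 and 5.28e-07, limma). Ppp2r5a, a PP2A subunit linked to MYC turnover, rose by 1.31 ± 0.17 (6.66e-05), and Gsk3b, the kinase that marks MYC for degradation, by 0.94 ± 0.19 (0.00152). Both were already higher at 1h, by 0.76 ± 0.17 (adjusted p 0.0151, limma) and 0.72 ± 0.19 (0.0327). On unscaled TPM the 48h difference of Gsk3b was 0.54 (0.0786). These 4 genes were named for the size of their change. Tested ubiquitin ligases of the list, named after their values were seen, were not called higher at 48h with Ppp2r5a and Gsk3b. From 0h to 48h, Skp2 went from 1.78–2.29 to 0.173–0.542 scaled TPM and Fbxl14 from 5.43–7.28 to 1.83–3.05. Stub1 went from 7.51–8.36 to 2.98–4.44, and Fbxw7 overlapped at 1.23–1.42 and 1.37–1.95. Huwe1 was at 13.3–14.9 and 13.1–13.2, and Trim32 overlapped at 0.663–1.04 and 0.367–1.17. Fbxo32, too low to be tested, was at 0.0543–0.143 and, higher, 0.159–0.251. Its unscaled ranges of 0.05–0.12 and 0.10–0.18 TPM overlapped. The net direction for MYC turnover was not tested.

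Genes known from the literature to be raised by MYC, which serve ribosome assembly, translation, nucleotide and polyamine synthesis, glycolysis and the cell cycle, fell together. Of 61 such genes, 59 were tested. At 1h, 0 were higher and 16 lower, at 12h 1 and 47, and at 48h 0 and 56, against the shares of all genes given above. Their median was -0.52, -1.47 and -2.72 at these times with scaling, and 0.15, -1.15 and -3.10 without. Without scaling, 3 were higher and 1 lower at 1h, beside 24.1% and 1.41% of all genes, so the sign at 1h is set by the scaling. The median of all genes at 1h was 0.02 with scaling and 0.59 without, so the list median lay below it either way. Many of these genes also follow the cell cycle, and the part of proliferation in their fall was not tested.

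Mcm5, a subunit of the replicative helicase, was at 16.8, 15.6 and 18.0 scaled TPM at 0h and 16.1, 14.7 and 17.5 at 1h, then 2.12, 2.01 and 3.18 at 12h and 0.223, 0.153 and 0.133 at 48h. Its fall of 5.98 ± 0.20 (adjusted p 2.23e-09, limma) was the largest of the list at 48h. Shmt2, the mitochondrial serine hydroxymethyltransferase, was at 53.2, 56.1 and 61.1 at 0h and at 0.956, 1.14 and 2.14 at 48h, a fall of 5.31 ± 0.23 (1.42e-08). The 3 genes of the list not called at 48h were Hk2, Tfb2m and Odc1, named here after their values were seen. Odc1, the rate-limiting enzyme of polyamine synthesis, was at 38.8, 35.5 and 29.3 at 0h, 20.3, 19.4 and 16.9 at 1h, 14.4, 14.8 and 15.5 at 12h and 44.3, 33.3 and 32.3 at 48h. The 0h and 48h libraries overlapped above both middle times, with a rise of 1.28 ± 0.15 from 12h to 48h (adjusted p 1.24e-04, limma). This depends on the scaling, since on unscaled TPM the 0h range of 24.6–40.0 overlapped the 1h range of 22.4–31.6 and the difference from 12h to 48h was 0.53 (0.0676). Hk2, hexokinase 2, was the gene of this list called higher at 12h (0.99 ± 0.22, adjusted p 0.00622, limma).

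Genes known to be held down by MYC, among them inhibitors of the cell cycle and stress genes, went the other way. Of 16, 13 were tested, of which 3 were higher and 1 lower at 1h, 7 and 0 at 12h, and 11 and 0 at 48h, with medians of 0.25, 1.24 and 2.46. Of all genes, 5.42% were higher at 1h, 16.0% at 12h and 24.5% at 48h. Without scaling, 6 and 0 of the 13 were called at 1h, 9 and 0 at 12h, and 8 and 1 at 48h, where the lower gene was Tspyl2 (adjusted p 0.0331, limma), named after its value was seen. With scaling, the lower gene at 1h was Btg2 (-1.04 ± 0.24, adjusted p 0.0196, limma; -0.46 and 0.207 unscaled), named after its value was seen. Cebpd, a C/EBP family gene of myeloid cells, was at 0, 0.0435 and 0.0953 scaled TPM at 0h and at 3.44, 4.27 and 5.64 at 48h. Dusp1, a MAP kinase phosphatase, was at 0.999, 0.804 and 0.810 at 0h and 22.0, 20.7 and 25.2 at 48h, a rise of 4.55 ± 0.15 (2.27e-09). The inhibitor Cdkn1a, named after its values were seen, rose from 1.07–2.36 at 0h to 2.93–3.36 at 1h, 12.4–14.0 at 12h and 29.4–35.5 at 48h. Ndrg1 and Tspyl2 were not called at 48h, with differences of 0.19 and -0.69. Several genes of this list are also induced in macrophages, and those parts cannot be told apart here.

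**Figure D4:**
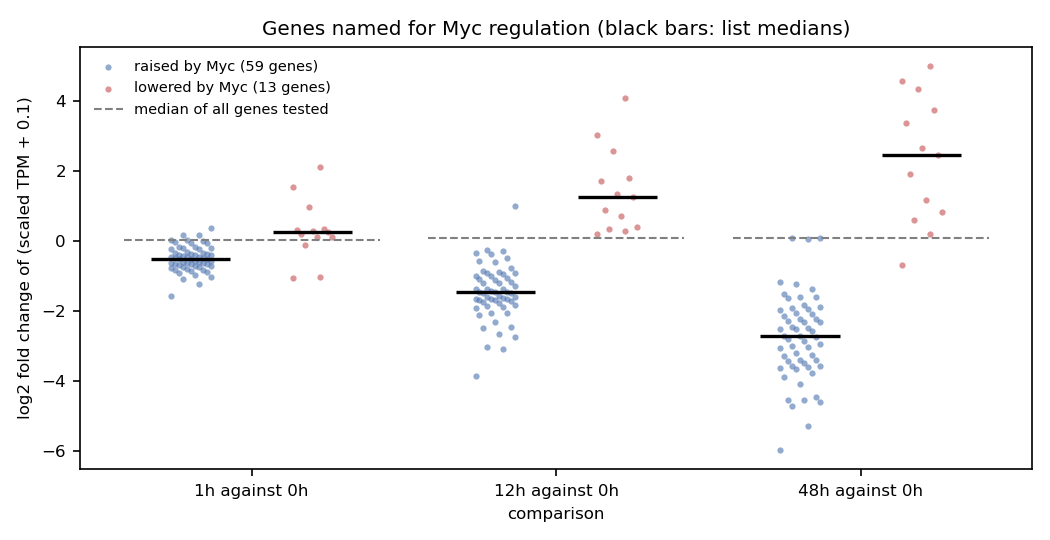
Log2 fold change of (scaled TPM + 0.1) against 0h (y axis) for 59 genes raised by MYC and 13 lowered by MYC at each comparison (x axis). Each point is a gene, black bars are list medians (-2.72 and 2.46 at 48h) and the dashed lines are the median of all 16415 genes; without scaling the median of the raised genes at 1h was 0.15, not -0.52.

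Around Myc, 7 of 9 genes of the surrounding region on chromosome 15 were in the table and 6 were tested. Pvt1, the non-coding gene next to Myc, was at 0.660, 1.02 and 0.405 scaled TPM at 0h and 1.73, 1.59 and 2.02 at 12h, a rise of 1.31 ± 0.31 (adjusted p 0.00768, limma), while Myc fell over the same hours. Its 48h values of 1.12, 1.16 and 1.25 also lay above 0h with scaling, while on unscaled TPM the 48h range of 0.70–0.94 lay within that of 0h, 0.34–0.94. The difference of 0.75 ± 0.31 was not called (0.0650), nor was that of 0.37 on unscaled TPM (0.446). Trib1, a pseudokinase that targets C/EBPα for degradation, rose from 3.01–3.39 at 0h to 9.05–10.2 at 1h, was at 9.01–9.58 at 12h and reached 19.0–20.2 at 48h. The differences from 0h were 1.58 ± 0.11 (adjusted p 8.73e-06, limma), 1.51 ± 0.11 (2.24e-06) and 2.58 ± 0.11 (1.21e-08). The step from 12h to 48h depends on the scaling, being 1.07 ± 0.11 with it (3.72e-05) and 0.33 without (0.160), where the 1h and 48h means were 14.4 and 13.8 TPM. Fam49b rose by 0.88 ± 0.23 at 12h (0.0132) and Sqle, an enzyme of cholesterol synthesis, fell by 1.42 ± 0.16 at 48h (2.67e-05). Nsmce2 and Fam84b were not called against 0h at any time, and Gsdmc was listed at 0.

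A contact in the PCHi-C lists joins a promoter fragment (bait), cut with HindIII, to another fragment. The 0h list holds CHiCAGO scores, a measure of how far a contact exceeds its background, of at least 5. The values of the 1h, 12h and 48h lists are whole numbers, taken as read pairs, and are not compared with the scores. With 1 merged list per time there is no replicate error and no test. A contact missing from a list fell below the threshold there and is not shown to be absent.

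The Myc bait, chr15:61984173-61985527 (mm10), is 1355 bases long and holds the start of Myc. It had 2 listed contacts at 0h and 3 at 1h, then 0 at 12h and 4 at 48h, where the median bait had 4 at each time and 12.5% of baits had none at 12h. The early contacts on chromosome 15 lay far downstream of the gene. At 0h the bait was joined to chr15:63642756-63651558, 1.66 Mb downstream inside Gm41335, with a score of 12.3. At 1h it was joined to the same fragment (5 read pairs) and to the adjoining chr15:63651559-63655854 (6) and chr15:63655855-63657896 (7). At 12h and 48h none of these fragments was listed. At 48h the contacts lay closer, to chr15:62247091-62253662 inside Pvt1, 266 kb downstream (9 read pairs), and to chr15:62395345-62397222 and chr15:62412685-62417927, at 411 kb and 430 kb (7 each). Since the 12h list held no contact of this bait, none could be listed at all 4 times. A cluster of blood cell enhancers is known far downstream of Myc, and whether these fragments belong to it was not tested. None of these far ends was itself a bait.

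The remaining Myc contact was listed between different chromosomes. The fragment chr7:141188434-141192923, which holds the start of Hras, was joined to the Myc bait at 0h with a score of 51.8, rank 140 among 880 contacts between chromosomes in that list, and at 48h with 4 read pairs. The same fragment was listed with 15 partners at 0h and 16 at 48h, and with 0 at 1h and 12h. Of these partners, 14 and 12 lay on other chromosomes, on 5 chromosomes at either time. Among them were baits of Ier5 (score 97.0), Gfi1b (110.02) and Lfng (95.1), all with higher scores than Myc at 0h. Many of the partners lay side by side. Those of Gtf3c5, Gfi1b and Tsc1 fell between chr2:28583490 and chr2:28642502, and those of Ier5, Mr1 and Stx6 between chr1:155097836 and chr1:155164900. The contact is thus shared with baits at several loci and is not particular to Myc. The line stems from cells transformed with Ha-ras, and the part of that sequence in these contacts was not tested. They are therefore not shown to join the Myc and Hras loci of different chromosomes.

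The promoters of the other members differed widely in their contacts. At 0h, 1h, 12h and 48h, Mxd1 had 16, 14, 15 and 24, placing its bait above 81.6% of all baits at 0h and above 89.9% at 48h. Of its 48h contacts, 10 were not listed at 0h, and 4 of these had no 0h contact within 10 kb. Of these 4, 3 were the adjoining fragments from chr6:86570117 to chr6:86594530, with 10, 10 and 16 read pairs, which lie 72.4 to 89.0 kb downstream of Mxd1 and cover 1600020E01Rik and Gm44369. The fourth, chr6:86495060-86503231, lay 167 kb downstream (6 read pairs). Of the 48h contacts of Mxi1, 29 of 60 were not listed at 0h, and of those of Mnt 7 of 13. It was 2 of 4 for Max, 3 of 4 for Myc and 1 of 1 for Mxd4. Mlx had 2 of 16, Mycn 1 of 5 and Mxd3 0 of 1, against 10 of 24 for Mxd1. The share over all baits was not counted. Mxd1 had its largest number of contacts at 48h, the time of its highest RNA level. From 0h to 12h its contacts did not increase while its RNA rose. The 48h list was also the longest, at 144072 contacts, and a link between contacts and RNA was not tested.

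Mxd4 had its fewest contacts at 48h. Its contacts numbered 4, 2, 2 and 1 in time order, while its RNA rose, and no contact was listed at both 0h and 48h. Mlx had 31, 31, 16 and 16 contacts, and 12 of the 17 that were listed at 0h and not at 48h had no 48h contact within 10 kb. These 12 included fragments with the starts of Acly (score 10.6), Kat2a (8.29) and Rab5c (7.96) and fragments inside Stat5b (8.57 and 7.33). Not listed at 48h were 17 of 31 0h contacts of Mlx, 24 of 55 of Mxi1 and 7 of 13 of Mnt. For Max it was 4 of 6, for Mycn 4 of 8, for Mxd4 4 of 4 and for Mxd3 2 of 3. For Myc it was 1 of 2 and for Mxd1 2 of 16. Mnt had 13, 7, 7 and 13 contacts, fewest at 1h and 12h, and 6 were listed at both 0h and 48h. Mxi1, with 2 baits, had 55, 53, 62 and 60, the most of any member. Max had 6, 10, 8 and 4, Mxd3 3, 2, 6 and 1, and Mycn, whose RNA was near 0 throughout, 8, 8, 9 and 5. The lists themselves held 138769, 137836, 131598 and 144072 contacts.

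**Figure D5:**
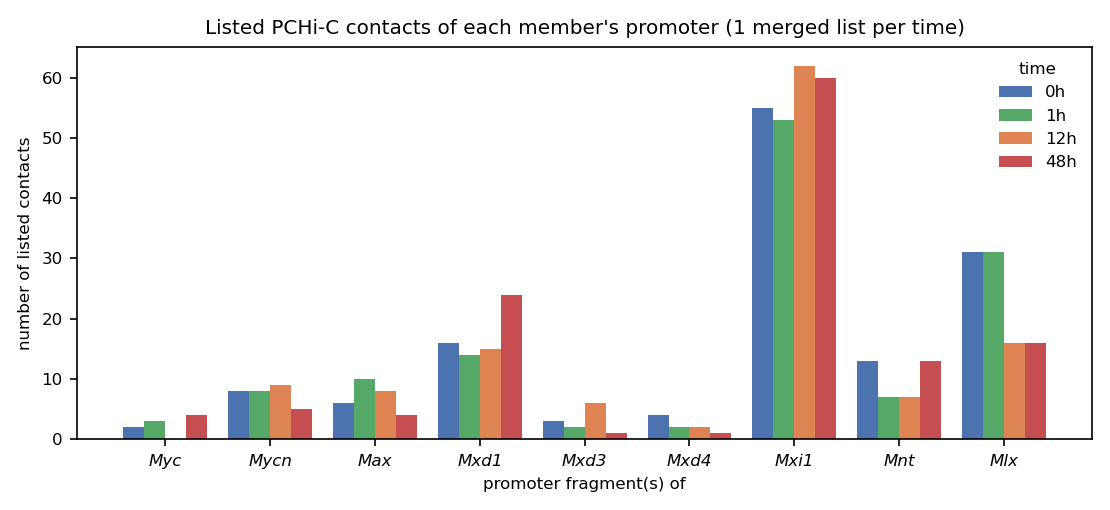
Number of listed PCHi-C contacts (y axis, from 0) of the promoter fragment or fragments of each member (x axis) in the merged list of each time (bar colours). Mxd1 rises to 24 at 48h, Mlx drops from 31 to 16, Mxd4 from 4 to 1, and Myc has no bar at 12h.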

How the data were processed

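RNA-seq of 12 libraries and 4 merged PCHi-C lists were analysed. Hi-C was not used here. Per the labels and the study's methods, the authors depleted ribosomal RNA, trimmed single-end reads (Trim Galore 0.6.2), mapped them to mm10 (HISAT2 2.1.0) and deposited TPM from RSEM. The authors merged 2 PCHi-C replicates, mapped with HiCUP and called contacts by CHiCAGO. A score per contact is deposited for 0h. For 1h, 12h and 48h the authors deposited whole numbers, taken here as counts of read pairs, whose unit is not given in the sources used here.

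TPM were divided by median-of-ratios size factors over 11246 genes above 0 in all libraries, because the study's DESeq2 scales libraries this way. In time order, the mean size factors were 0.930, 1.47, 1.18 and 0.699. Limma 3.58.1 in R 4.3.3 (lmFit, eBayes with trend) was fitted to log2(scaled TPM + 0.1) with 1 model of the 4 times. Simulated 48h against 0h data held 16415 genes, of which 200 were changed. There limma recovered 38% of genes changed 2-fold and 82% of those changed 4-fold. It called 7 unchanged genes, or 498 without scaling. The median error of the changed genes was -0.35 without scaling and 0.01 with it, so the simulated libraries carried a shift that scaling removes. In the real data 7639 genes were called at 48h against 0h. The simulation therefore cannot decide whether the scaling holds where many genes change. Contacts were counted once per pair of fragments in Python 3.11.15 with pandas 2.3.3. Gene positions and starts are from GENCODE M21, and 100% of the table's gene IDs matched it.

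The members, gene lists, tests and rules were chosen with earlier results of these data known. Named are all members, other network genes, neighbours of Myc, the 5 genes most like a member and, per list, up to 2 genes with the largest called rise and fall at 48h with a mean TPM of 1 or more and no overlap between groups. The value of 1 gene under this rule is not reported here. Alternatives varied the scaling, pseudocount, filter, libraries in the fit, replicate block, trend, replicates and thresholds.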

Additional observations from a re-analysis of the deposited data

How the results depend on the processing

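Over 22 alternatives (21 for Mxd3, which is below a mean TPM of 1), 845 of 875 fold changes of members stayed on their side of the threshold, 16 lost the call and 13 gained it. The sign turned in 30 of the 875, in 11 of the 40 member comparisons, and 0 of those 30 were called as reported. In 29 of these the value with the other sign was not called either, and the other was Myc from 12h to 48h on unscaled TPM, called at -0.50. The calls of Myc, Mxd1 and Mxd4 at 12h and 48h against 0h held under every alternative run, with log2 fold changes at 48h between -1.78 and -1.30, 2.76 and 4.11, and 2.44 and 3.49. On unscaled TPM the members called were 1 at 1h and 3 from 1h to 12h, and all genes called were 4186 at 1h and 5878 from 12h to 48h, against 1697 and 3684 with scaling. With a log2 fold change beyond 1 also required, 3 members were called from 1h to 12h and 1 from 12h to 48h. Leaving out each library in turn gave 3 to 4 members called at 1h against 0h, 3 to 4 at 12h, 4 to 5 at 48h, 3 to 5 from 1h to 12h and 1 to 3 from 12h to 48h. All genes called then numbered 1049 to 2086 at 1h against 0h, with 1118 without 0h replicate 2, 1084 without 1h replicate 1 and 1049 without 1h replicate 2, and 4047 to 5399 at 12h, 6830 to 7615 at 48h, 2502 to 3701 from 1h to 12h and 2810 to 4034 from 12h to 48h.

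The labels do not say that a replicate number marks a shared culture or day, and the libraries were not treated as paired. The deviations of same-numbered libraries from their group means correlated between -0.011 and 0.257, above 0 in 14 of 15 comparisons and above 0.1 in 6, and 7 of 12 libraries correlated best with a library of their own number, a hint of shared variation from the data and not from the design. With the number as a block, 3, 3, 5, 5 and 3 members were called at 1h, 12h and 48h against 0h, from 1h to 12h and from 12h to 48h. The block added Max at 48h against 0h (adjusted p 0.0291, limma) and from 12h to 48h (0.0290). Both contacts of the Myc fragment at 0h also passed a score of 10, and counting ends within 10 kb as shared left 3 of its 48h contacts not listed at 0h.

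TPM keep no depth, so the precision of low members such as Mxd3 is unknown, and the PCHi-C lists have no replicates.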
